A study of Homo sapiens with 34 samples.

Results

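The zinc finger (ZNF) genes of chromosome 19 were taken as the protein-coding genes on that chromosome whose symbol begins with ZNF and a digit, in the RefSeq gene table of GRCh38.p14. There were 250 of them among 19974 protein-coding genes on the autosomes and the X chromosome, 84 on the short arm (19p) and 166 on the long arm (19q). A gene counted as marked in a library when at least 1 base of a peak fell in the gene or within 2 kb on either side. Membership was set by names and positions only, though earlier results of these data were known when the set was chosen. The windows of 80 members overlapped that of another member, so neighbours could share a peak, and joining overlapping windows left 203 separate stretches. Among the members were 3 read-through genes, such as ZNF559-ZNF177, that repeat the span of other members.

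The peaks came from CUT&Tag, where a transposase tethered to a chromatin-bound antibody cuts and tags the DNA nearby. The rabbit antibody was labelled anti-H3K9me, and whether it reads mono-, di- or trimethylation was not stated. The cells were COLO320 DM, a colorectal adenocarcinoma line, and PC3 DM, a prostatic adenocarcinoma line, both known for carrying MYC on extrachromosomal DNA. Every library was made from 50000 nuclei, 3 days after transfection with 700 ng of sgRNA plasmid. COLO320 DM had 18 libraries, 3 each for ecSE1, ecSE2, ecSE3, ecSE4, the combination ecSEcombo and the vector. PC3 DM had 16 libraries, 3 each for ecSE1, ecSE2, ecSE6 and ecSEcombo, 2 for ecSE7 and 2 for the vector. The lipofectamine product differed between the lines and was shared by all perturbed and vector cells of a line. The labels give neither the genomic positions of the elements nor the effector that the guides direct. The lists on these chromosomes held 9385 to 125213 peaks in COLO320 DM (median 18271) and 10288 to 102286 in PC3 DM (median 26526.5). The longest were COLO320 DM ecSE1 replicate 2 and PC3 DM ecSEcombo replicate 1. The depth behind each list is unknown, and a window without a called peak is not a window shown to lack the mark. In bulk libraries, fewer cells with the mark and less mark per cell cannot be told apart.

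Most chromosome 19 ZNF genes encode proteins with a run of C2H2 zinc fingers that bind DNA, and many also carry a KRAB domain. KRAB zinc finger proteins recruit TRIM28, which brings the methyltransferase SETDB1 to the bound DNA, where histone H3 is trimethylated on lysine 9 and HP1 proteins bind. The family is known for silencing transposable elements. The finger-coding exons, at the 3′ ends of the genes, are themselves known targets of this mark, through ZNF274, a member whose protein binds there. The genes lie in tandem clusters that grew by duplication.

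Promoters of 5 members are shown because the results below turn on where in the gene the peaks lay. ZNF274 and ZNF91 had a peak in every library, ZNF583 was the member whose start differed most between the lines, ZNF443 had a peak over its promoter in more libraries than any other member, and ZNF358 had no peak in any library. ZNF583 and ZNF443 were picked for this after their values were seen. For ZNF358 the start in the promoter table lies inside the gene's span in the gene table. Each line gives the 250 bases before the annotated start, 5′ to 3′ on the gene's strand, from RefSeq on GRCh38.p14, with each CG dinucleotide in capitals.
ZNF274, plus strand, chr19:58182811-58183060: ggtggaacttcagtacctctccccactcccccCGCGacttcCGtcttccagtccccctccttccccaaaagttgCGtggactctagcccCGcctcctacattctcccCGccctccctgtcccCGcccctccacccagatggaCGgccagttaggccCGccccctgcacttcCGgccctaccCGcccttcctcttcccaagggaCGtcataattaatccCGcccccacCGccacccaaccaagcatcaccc
ZNF91, minus strand, chr19:23395472-23395721: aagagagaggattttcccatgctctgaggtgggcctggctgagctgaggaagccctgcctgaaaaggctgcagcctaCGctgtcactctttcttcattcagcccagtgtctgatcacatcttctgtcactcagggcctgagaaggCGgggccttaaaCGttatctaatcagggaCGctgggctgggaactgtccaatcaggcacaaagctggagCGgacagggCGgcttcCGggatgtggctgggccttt
ZNF583, plus strand, chr19:56403764-56404013: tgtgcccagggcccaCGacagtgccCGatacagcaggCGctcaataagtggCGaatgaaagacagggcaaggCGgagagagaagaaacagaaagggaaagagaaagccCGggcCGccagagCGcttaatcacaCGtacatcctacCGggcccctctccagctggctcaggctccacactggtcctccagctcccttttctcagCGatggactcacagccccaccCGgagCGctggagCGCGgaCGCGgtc
ZNF443, minus strand, chr19:12441022-12441271: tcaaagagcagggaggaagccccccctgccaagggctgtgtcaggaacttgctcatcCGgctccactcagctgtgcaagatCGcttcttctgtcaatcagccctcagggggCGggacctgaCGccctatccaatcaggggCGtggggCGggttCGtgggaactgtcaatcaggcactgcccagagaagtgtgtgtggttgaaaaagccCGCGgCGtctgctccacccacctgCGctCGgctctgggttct
ZNF358, plus strand, chr19:7515853-7516102: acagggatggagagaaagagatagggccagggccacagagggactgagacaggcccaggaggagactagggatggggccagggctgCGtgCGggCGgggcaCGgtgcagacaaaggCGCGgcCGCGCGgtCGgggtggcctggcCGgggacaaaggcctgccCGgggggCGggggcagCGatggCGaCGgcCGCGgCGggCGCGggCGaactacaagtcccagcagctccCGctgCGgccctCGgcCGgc
These stretches held 14 CG dinucleotides for ZNF274, 7 for ZNF91, 17 for ZNF583, 12 for ZNF443 and 26 for ZNF358, against a median of 17 over the 15813 protein-coding genes with a promoter in the table. Of the 250 members, 219 had a promoter and a strand there.

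In the lists as deposited, a typical library had a peak in most members. The share of members with a peak was 57.2% ± 9.83 in COLO320 DM libraries (SD, n = 18), with a lowest value of 41.2%, a median of 55.4% and a highest of 84%. In PC3 DM libraries it was 63.7% ± 10.4 (SD, n = 16), with a lowest value of 42.8%, a median of 66.4% and a highest of 86.4%. The ranges of both lines overlapped almost wholly, and the highest value of each line belonged to its longest peak list. The share was lower in both lines with every list cut to equal length, at 40.1% for COLO320 DM libraries and 49.0% for PC3 DM libraries. With at least 500 bp of a single peak asked for, it was 24.5% for COLO320 DM libraries and 18.2% for PC3 DM libraries.

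The 1201 other protein-coding genes of the same chromosome were marked far less often, at 4.76% ± 3.72 in COLO320 DM libraries (SD, n = 18) and 9.76% ± 4.63 in PC3 DM libraries (SD, n = 16). The members lay above these genes in 34 of 34 libraries. ZNF genes on other chromosomes, 267 in all, came closer, at 46.1% ± 6.99 in COLO320 DM against 48.2% ± 7.96 in PC3 DM, and again the members were higher in 34 of 34 libraries. Over all protein-coding genes the share was 16.6% ± 7.93 in COLO320 DM and 25.1% ± 8.95 in PC3 DM. The median member had a peak in 22 of the 34 libraries, against 13 for ZNF genes elsewhere, 3 for all protein-coding genes and 1 for the other genes of chromosome 19.

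**Figure D1:**
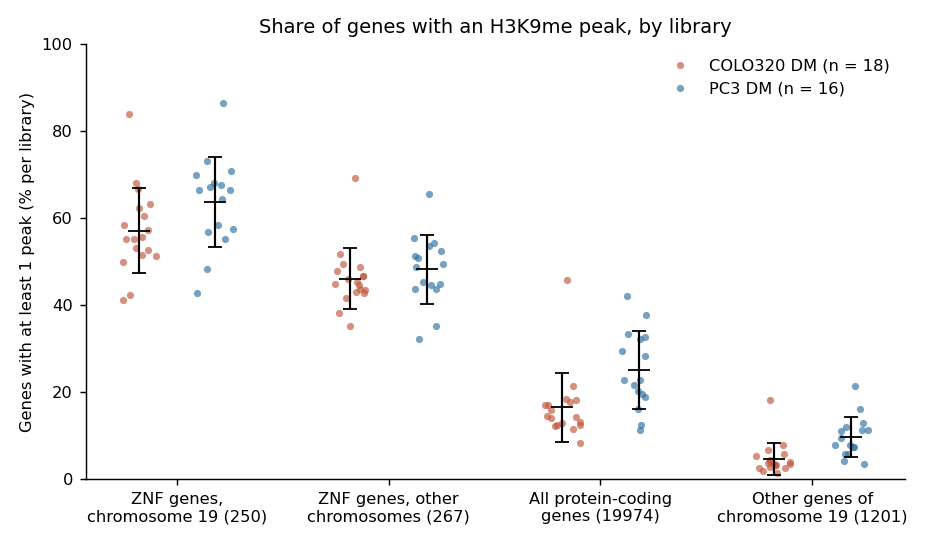
Share of genes with at least 1 peak in each library (percent, 1 point per library), for chromosome 19 ZNF genes, ZNF genes elsewhere, all protein-coding genes and the other genes of chromosome 19, with COLO320 DM left of PC3 DM in each pair and bars for mean and SD. The ZNF genes of chromosome 19 are highest in both lines, at 57.2% in COLO320 DM and 63.7% in PC3 DM.

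The members' windows held 54.5% ± 6.00 of all chromosome 19 peaks in COLO320 DM libraries and 43.5% ± 6.30 in PC3 DM libraries (SD, n = 18 and n = 16). Peaks nevertheless covered few of their bases. The covered share was 1.40% ± 0.486 in COLO320 DM and 1.45% ± 0.620 in PC3 DM, against 0.0959% ± 0.0561 and 0.161% ± 0.0726 in windows of other chromosome 19 genes in the same lines. The lines stood further apart at the top of the lists. Among the 1000 best peaks of each library by q-value, 4.11% ± 1.57 of members had one in COLO320 DM, against 1.07% ± 0.0588 of all protein-coding genes. In PC3 DM 13.9% ± 2.42 of members had one, against 1.53% ± 0.108 of all protein-coding genes. The member ranges, 1.2 to 7.2% in COLO320 DM and 10.4 to 18.8% in PC3 DM, did not overlap.

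Longer members were marked in more libraries (Spearman's rho 0.495 across 250 genes, a description of genes that share libraries and windows). The difference from the other genes of chromosome 19 was present within each length class. Among members under 10 kb, 29.4% were marked in an average COLO320 DM library and 33.5% in PC3 DM, against 1.22% and 3.40% of other chromosome 19 genes. Among members of 30 kb or more, 73.5% were marked in COLO320 DM and 78.9% in PC3 DM, against 13.2% and 26.6% of other chromosome 19 genes of that length.

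Other zinc finger genes lying among the members had a somewhat lower mean share than the members, and the remaining neighbours were marked far less often. Within the 9 clusters of at least 5 members, a cluster being a run of members less than 1 Mb apart, 239 members had a peak at 57.9% ± 10.0 in COLO320 DM and 64.3% ± 10.7 in PC3 DM. In the same clusters, 13 related zinc finger genes named ZFP, ZSCAN, ZIM or ZIK1, whose windows met no member gene, reached 49.1% ± 16.1 in COLO320 DM and 50% ± 13.2 in PC3 DM. The 119 remaining genes of those clusters that met no member gene stood at 7.47% ± 5.95 in COLO320 DM and 15.8% ± 7.05 in PC3 DM. They were also shorter, with a median length of 12.4 kb against 23.2 kb for the members in clusters. Genes of the chromosome outside the clusters, 1052 in all, stood at 3.63% ± 3.41 in COLO320 DM and 8.32% ± 4.32 in PC3 DM. The related genes were not alike, and those named here were picked after their values were seen. ZFP14 and ZSCAN18 were marked in 18 of the 18 COLO320 DM libraries and 16 of the 16 from PC3 DM. ZSCAN5B, with 1 library in each line, and ZSCAN22, with 2 in each line, were among those rarely marked.

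Members of the short arm were marked more often than those of the long arm. In COLO320 DM the share was 69.9% ± 9.94 on 19p and 50.7% ± 10.3 on 19q (SD, n = 18). The difference of 19.2 ± 5.50 points ranged over 9.65 to 29.2 points and was positive in 18 of 18 libraries. In PC3 DM the share was 80.3% ± 8.63 on 19p and 55.3% ± 11.6 on 19q (SD, n = 16). That difference of 24.9 ± 5.35 points ranged over 13.3 to 32.4 points and was positive in 16 of 16 libraries. No test was made of it, since it is a score over chosen genes.

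The 19p members were also longer, with a median of 28.6 kb on 19p and 22.0 kb on 19q. Among members of 10 to 30 kb, the COLO320 DM shares were 66.5% on 19p (43 genes) and 47.2% on 19q (97 genes), and the PC3 DM shares were 77.0% and 53.7% in the same order of arms. Among members of 30 kb or more the gap was smaller in COLO320 DM, at 77.6% on 19p and 70.3% on 19q, and in PC3 DM the shares were 88.5% on 19p and 71.3% on 19q.

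The arms were not uniform. The 19p cluster that runs over 19.67 to 24.13 Mb, with 37 members between ZNF101 and ZNF254 and ZNF91 among them, had the highest share of the 9 clusters in PC3 DM, 88.2% ± 6.61, and 73.3% ± 9.89 in COLO320 DM. Its lowest PC3 DM library still had a peak in 78.4% of its members. Without that cluster the other 47 members of 19p stood at 67.3% ± 11.1 in COLO320 DM and 74.1% ± 11.5 in PC3 DM. On 19q, the 26 members between ZNF565 and ZNF573 reached 72.2% ± 13.1 in COLO320 DM and 64.2% ± 19.5 in PC3 DM, close to the 19p clusters in COLO320 DM. Among clusters of at least 5 members, the lowest 19q shares belonged to 2; some runs of 1 or 2 members were lower. These were the 24 members between ZNF575 and ZNF296, at 35.9% ± 13.6 in COLO320 DM against 40.9% ± 15.5 in PC3 DM, and the 60 members between ZNF628 and ZNF446, at 42.0% ± 8.35 in COLO320 DM and 47.7% ± 10.9 in PC3 DM. Without them the other 82 members of 19q stood at 61.4% ± 12.2 in COLO320 DM and 65.2% ± 12.4 in PC3 DM. The clusters left out on each arm were picked by these same shares, so leaving them out narrows the gap between the arms by construction.

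**Figure D2:**
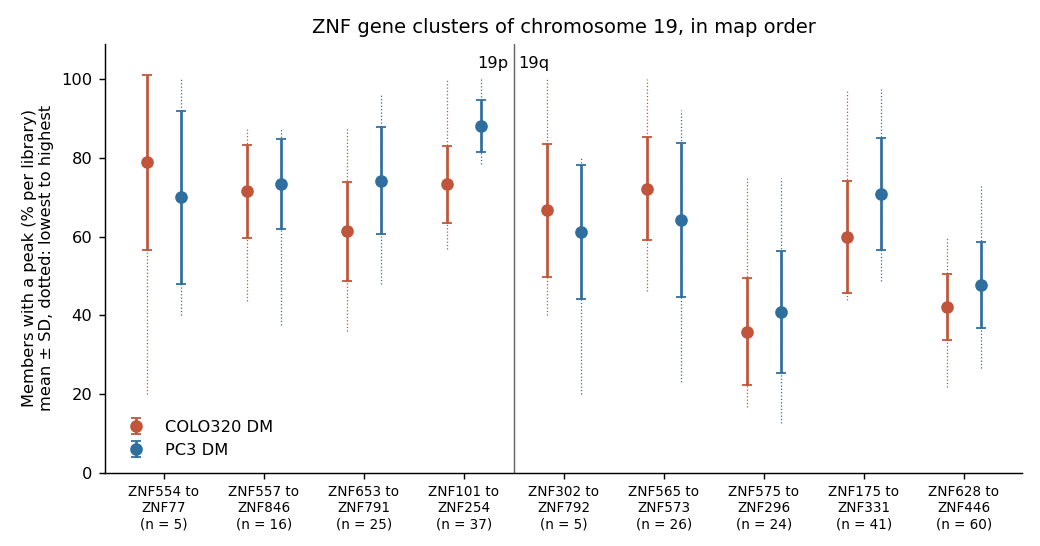
Members with a peak (percent per library) in the 9 clusters of at least 5 members, in map order with 19p left of the vertical line, COLO320 DM left of PC3 DM in each pair; points and bars are mean and SD over libraries and dotted lines run over all libraries. The ZNF101 to ZNF254 cluster stands at 88.2% in PC3 DM, and the ZNF575 to ZNF296 cluster is the lowest in both lines.

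Within the clusters the most widely marked members, named by a fixed rule, were ZNF555 and ZNF77 around 2.9 Mb, ZNF559-ZNF177 and ZNF559, ZNF69 and ZNF564, ZNF208 and ZNF66 on 19p. On 19q they were ZNF599 and ZNF30, ZNF420 and ZNF345, ZNF180 and ZNF221, ZNF578 and ZNF577, and ZNF544 and ZNF583. The lowest of these was ZNF221, the second of the ZNF575 to ZNF296 cluster, with 14 of the 18 COLO320 DM libraries and 11 of the 16 from PC3 DM. In that cluster ZNF180 alone had a peak in every library.

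Peaks lay towards the 3′ end of the members. Each of the 219 genes with a strand was divided into 10 equal intervals, numbered by position in the direction of transcription. In COLO320 DM peaks covered 3.36% ± 0.969 of the last 3 intervals and 0.379% ± 0.221 of the first 3 (SD over 18 libraries). In PC3 DM they covered 3.12% ± 1.25 of the last 3 intervals and 0.624% ± 0.349 of the first 3 (SD over 16 libraries). The last intervals were above the first in 34 of 34 libraries. The difference was 2.98 ± 0.820 points in COLO320 DM and 2.50 ± 1.05 points in PC3 DM, ratios of 8.85 and 5.00 between the mean coverages. The other genes of chromosome 19 with a strand, 966 in all, lay at 0.0565 to 0.208% in every interval of both lines.

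The arms stood apart at the end of the gene, in interval 10. Among 73 members of 19p, peaks covered 5.41% ± 1.62 of it in COLO320 DM and 5.79% ± 2.05 in PC3 DM. Among 146 members of 19q, they covered 2.49% ± 0.843 of it in COLO320 DM and 2.24% ± 1.02 in PC3 DM, less than in interval 9 of the same genes, with 3.30% ± 1.18 in COLO320 DM against 2.71% ± 1.29 for PC3 DM. In each of the first 4 intervals the means of both arms lay within 1 SD of each other in both lines.

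**Figure D3:**
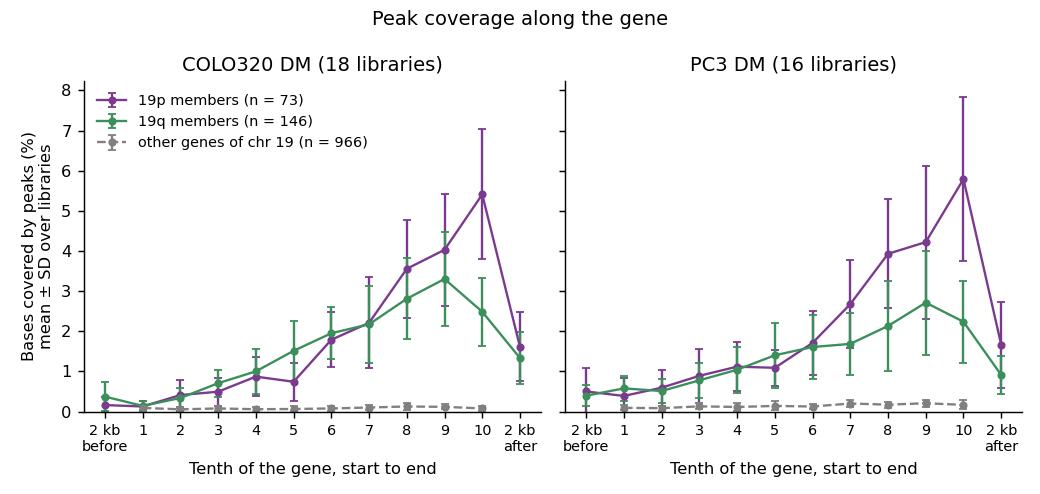
Percent of bases covered by peaks in each of 10 equal intervals of the gene and in 2 kb on either side, mean and SD over libraries, for COLO320 DM (left) and PC3 DM (right). Coverage climbs towards the end of the gene in members of both arms, reaching 5.41% on 19p in COLO320 DM and 5.79% in PC3 DM, while other genes of chromosome 19 stay at or below 0.208%.

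By distance, coverage formed a plateau in the last 6 kb of the gene. In the 6 bins of 1 kb before the gene end it was 3.13 to 4.11% in COLO320 DM and 2.78 to 3.99% in PC3 DM. It was 1.59% in COLO320 DM and 1.57% in PC3 DM in the next bin inwards. In the first kb past the gene end it was 2.03% in COLO320 DM and 1.61% in PC3 DM. Over the next 4 bins it ranged over 0.799 to 1.60% in COLO320 DM and 0.712 to 1.3% in PC3 DM. The lowest values lay around the start. In the first kb of the gene peaks covered 0.112% ± 0.113 of bases in COLO320 DM and 0.567% ± 0.322 in PC3 DM. The 72 members of 30 kb or more showed the same plateau before the end, at 2.63 to 4.92% in COLO320 DM and 2.41 to 4.65% in PC3 DM.

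**Figure D4:**
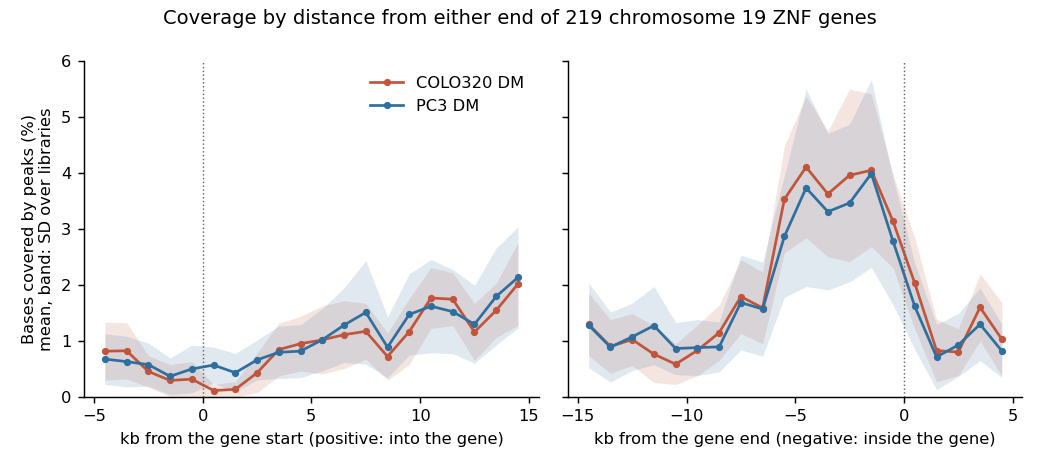
Percent of bases covered by peaks in bins of 1 kb around the start (left) and the end (right) of 219 members; lines are means and bands SDs over the libraries of each line. Both lines show 2.78 to 4.11% in the last 6 kb of the gene and under 0.6% in the first 2 kb.

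Counted by gene, 29% ± 7.64 of these members had a peak in their last 4 kb in COLO320 DM and 31.3% ± 8.90 in PC3 DM, while 3.73% ± 3.03 had one in their first 4 kb in COLO320 DM and 7.99% ± 5.56 in PC3 DM. The promoter, 250 bases before to 50 after the start, met a peak in 0.583% ± 0.603 of members in COLO320 DM and 1.54% ± 1.48 in PC3 DM. In 174 of 219 members it met none in any library, and this held for 9 of the 12 always-marked members with a strand. The promoter of ZNF443, printed above, met a peak in 1 of the 18 COLO320 DM libraries and 6 of the 16 from PC3 DM. The interval with the highest mean coverage was one of the last 3 for 125 of 196 members with a peak inside the gene in COLO320 DM (63.8%) against 125 of 204 in PC3 DM (61.3%). It was one of the first 3 for 13 members in COLO320 DM and 20 in PC3 DM.

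Not every member followed this pattern. For 210 members with a strand and a peak, the place was taken where the largest number of best summits fell together (within 500 bp). It lay in the last 6 kb for 122, more than 6 kb before the end for 77 and past the end for 11. Places in the 2 kb before the start were not split off, and neighbours could share a place. ZNF69, at 35.3 kb before its end, had the same place as ZNF700, at 5.86 kb before its end. The number of summits falling together could be far from a majority, as with 6 of 34 in ZNF91 and 2 of 20 in ZNF536. In ZNF507 it was a single summit. In ZNF177 that place lay 0.729 kb before the end, and in ZNF93 0.798 kb before it. In ZNF91, a gene of 90.5 kb, it lay 51.6 kb before the end, and in ZNF274 13.4 kb before the end.

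A peak was found in every one of the 34 libraries for 15 members (6%), 8 on 19p and 7 on 19q. Over all protein-coding genes this held for 295 of 19974 (1.48%), and among the other genes of chromosome 19 for 3 of 1201. The 8 on 19p were ZNF555, ZNF559, ZNF559-ZNF177, ZNF177, ZNF66, ZNF738, ZNF208 and ZNF91. ZNF555 lies in the ZNF554 to ZNF77 cluster, the next 3 share 1 stretch, and the others belong to the ZNF101 to ZNF254 cluster. The 7 on 19q were ZNF180, ZNF577, ZNF578, ZNF583, ZNF667, ZNF274 and ZNF544. A further 62 members were in 30 to 33 libraries, which brought those in 30 or more to 77.

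ZNF274 (chr19:58183061-58213562, plus strand), whose protein binds the 3′ ends of other ZNF genes, had 238 bp covered in its lowest COLO320 DM library, a median of 1044 bp and a highest value of 1740 bp. In PC3 DM the lowest was 222 bp, the median 985.5 bp and the highest 2509 bp. The lines overlapped over nearly their whole range. Of its best summits, 25 of 34 fell within 500 bp of position 58200181, 14 in COLO320 DM and 11 in PC3 DM. No library had a peak over its promoter.

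ZNF91 (chr19:23305004-23395471, minus strand), known for repressing SVA elements, had 261 bp, a median of 1154 bp and a highest value of 2521 bp covered in COLO320 DM, and 144 bp, 1040 bp and 3777 bp in PC3 DM. Its best summits were scattered, since no more than 6 of 34 fell within 500 bp of one place. ZNF93 (chr19:19900946-19935575, plus strand), known for repressing L1 elements, had a peak in 17 of the 18 COLO320 DM libraries and 14 of the 16 from PC3 DM. For ZNF93 the highest library had 1955 bp covered in COLO320 DM and 1635 bp in PC3 DM.

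The summit shared by the most libraries was that of ZNF738, where 32 of 34 best summits fell within 500 bp of position 21384778, in 18 of the 18 COLO320 DM libraries and 14 of the 16 from PC3 DM. In ZNF30 30 of 31 fell together and in ZNF77 29 of 30. ZNF180 (chr19:44474431-44500522, minus strand) had the longest median coverage of the always-marked members in COLO320 DM after the read-through gene ZNF559-ZNF177. In COLO320 DM 1562 bp were covered in its lowest library, 2838 bp at the median and 4046 bp in its highest, against 394 bp, 1068 bp and 3736 bp in PC3 DM.

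By the share of the window covered, ZNF470 led in COLO320 DM with 10.4% ± 3.13 (SD, n = 18), followed by ZNF772 with 10.2% ± 5.56, ZNF792 with 9.60% ± 5.76, ZNF180 with 9.30% ± 2.26 and ZNF134 with 8.70% ± 3.76. In PC3 DM the leading member was ZNF551 with 6.67% ± 3.73 (SD, n = 16), followed by ZNF559 with 6.48% ± 2.84, ZNF177 with 6.00% ± 3.13, ZNF772 with 5.97% ± 3.58 and ZNF557 with 5.77% ± 1.96. ZNF772 was in both lists. ZNF470, ZNF772, ZNF134 and ZNF551 all lie in the ZNF628 to ZNF446 cluster, whose share of marked members was among the lowest.

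At the other end, 9 members had a peak in no library. They were ZNF358 and ZNF414 on 19p, and ZNF428, ZNF574, ZNF526, ZNF575, ZNF784, ZNF579 and ZNF580 on 19q. Among the other genes of chromosome 19 this held for 473 of 1201 (39.4%), and over all protein-coding genes for 4048 of 19974 (20.3%), against 3.6% of members. All 9 were short, 2.47 to 13.1 kb. A further 22 members had a peak in 1 to 3 libraries. Promoters of these 31 genes held more CG dinucleotides, with a median of 26.5 in the 300 bases around the start for 28 with a promoter. The median was 17 for 68 members in 30 or more libraries, 20 for 123 members in between and 22 for all protein-coding genes. The 31 genes were also shorter, with a median length of 10.6 kb against 30.5 kb for members in 30 or more libraries.

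Which members were marked was largely shared between the lines (Spearman's rho 0.805 across 250 members, a description with no test). In every COLO320 DM library a peak was found for 30 members, and in every PC3 DM library for 41. The presence of a peak was then compared gene by gene, COLO320 DM against PC3 DM, with Fisher's exact test. It was run over all protein-coding genes that had a peak in 3 or more libraries and lacked one in 3 or more. Of the 250 members 176 passed that filter, and the always-marked and never-marked ones could not. At an adjusted p of 0.05, 1 member was higher and 6 were lower in COLO320 DM. Over all 10067 genes tested, 1.25% were higher and 5.74% were lower in COLO320 DM, so the members' shares, 0.568% and 3.41%, lay under the background in both directions. The median difference was -7.64 points among the members and -16 points among all tested genes.

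ZNF793 (chr19:37506428-37543333, plus strand) had a peak in 17 of the 18 COLO320 DM libraries and 7 of the 16 from PC3 DM (adjusted p = 0.0364, Fisher's exact test). Its covered length was 0 to 2004 bp in COLO320 DM, with a median of 726 bp, and 0 to 1067 bp in PC3 DM, with a median of 0 bp. The ranges overlapped, but most PC3 DM libraries had no peak there. The call was lost without any 1 of 9 PC3 DM libraries, those of ecSE1 replicates 1 and 3, ecSE2 replicate 3, ecSE6 replicate 1, ecSE7 replicates 1 and 2, ecSEcombo replicates 2 and 3 and vector replicate 2.

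The lower members were led by ZNF726 (chr19:23914886-23944714, plus strand) and ZNF432 (chr19:52031378-52048838, minus strand), each with a peak in 6 of the 18 COLO320 DM libraries and 16 of the 16 from PC3 DM (adjusted p = 0.0043 for both, Fisher's exact test). ZNF726 had 0 to 981 bp covered in COLO320 DM, with a median of 0 bp, and 179 to 1921 bp in PC3 DM, with a median of 633 bp. ZNF432 had 0 to 985 bp covered in COLO320 DM, with a median of 0 bp, and 180 to 1169 bp in PC3 DM, with a median of 607 bp. Both calls held without any 1 library. With lists cut to equal length ZNF432 was no longer called (adjusted p = 0.0621, Fisher's exact test), while ZNF726 was.

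ZNF729 followed with 5 of the 18 COLO320 DM libraries and 14 of the 16 from PC3 DM (adjusted p = 0.0193, Fisher's exact test), and ZNF506 with 9 of 18 and 16 of 16 in the same order (adjusted p = 0.0277, Fisher's exact test). ZNF468 and ZNF99 each had 5 of the 18 COLO320 DM libraries and 13 of the 16 from PC3 DM (adjusted p = 0.0420, Fisher's exact test). The calls of ZNF468 and ZNF99 lay near the threshold, and each was lost without any 1 of 26 of the 34 libraries. With each library left out in turn, the difference was -58.9 to -51.8 points for both genes. Under 9 other settings of the processing, the calls were kept in 7 for ZNF726, 5 for ZNF432, 5 for ZNF729, 5 for ZNF793, 3 for ZNF506, 3 for ZNF468 and 2 for ZNF99. One of these settings, vector libraries alone, held too few libraries for any gene to meet the filter, so no gene was tested in it. The highest adjusted p among the 9 settings was 1 for ZNF506, 0.814 for ZNF432 and 0.188 for ZNF729 by Fisher's exact test. In 1 setting ZNF468 reversed direction. ZNF726, ZNF729, ZNF506 and ZNF99 lie in the ZNF101 to ZNF254 cluster, and ZNF432 and ZNF468 in the cluster between ZNF175 and ZNF331.

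**Figure D5:**
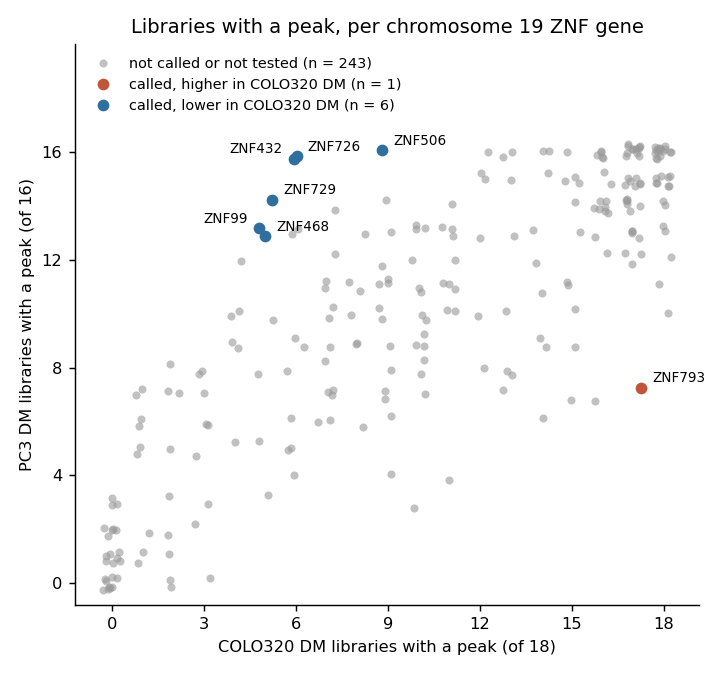
Libraries with a peak for each of the 250 members, COLO320 DM (of 18) against PC3 DM (of 16), with points spread slightly so that they do not hide each other. Members called between the lines are coloured and named; ZNF793 lies at 17 and 7, and ZNF726 and ZNF432 at 6 and 16.

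Over all genes the balance of calls depended on list length, while most calls among the members stayed on the lower side. With every list cut to its 9385 best peaks, 6.84% of 4711 genes tested were higher and 6.47% were lower in COLO320 DM. Of 188 members tested, 3 were higher (1.60%) and 13 were lower (6.91%), and 4 of these 16 were also called in the lists as deposited. The members' lower share was thus near that of all genes, and only their higher share lay well under it. Members higher in COLO320 DM were then ZNF567, ZNF790 and ZNF134, and the lower ones included ZNF726 (1 of the 18 COLO320 DM libraries and 13 of the 16 from PC3 DM, adjusted p = 0.000433 by Fisher's exact test), ZNF257 and ZNF878. These names were picked after their values were seen. The direction among the members turned with the overlap asked for instead. When a single peak had to overlap the window by 500 bp or more, 13 of 156 members tested were higher (8.33%) and 1 was lower (0.641%) in COLO320 DM. This setting asks for wide peaks and does not add up covered bases. All genes turned in the same way, with 21.6% of 2256 tested higher and 1.37% lower, so both of the members' shares lay under the background at that overlap. The median width of peaks in member windows was 366 ± 62.4 bp in COLO320 DM libraries and 300 ± 77.6 bp in PC3 DM libraries (SD, n = 18 and n = 16), and its part in that was not tested.

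Peaks at the gene start differed most between the lines at ZNF583 (chr19:56404014-56427364, plus strand), picked after its values were seen. It was marked in every library over the whole window, but within 2 kb of its start a peak was found in 1 of the 18 COLO320 DM libraries and 16 of the 16 from PC3 DM. There the covered length was 0 bp in 17 COLO320 DM libraries and 428 bp in the other, ecSE2 replicate 3, and 257 to 909 bp in PC3 DM, with a median of 723.5 bp. The groups overlapped only through that 1 library. In a test of 731 genes with enough libraries, 2.87% of starts were higher and 1.09% were lower in COLO320 DM. Of 39 members tested there, ZNF583 was lower in COLO320 DM (adjusted p = 2.82e-06, Fisher's exact test). In the last 4 kb of ZNF583 a peak was found in 17 COLO320 DM libraries and in 14 PC3 DM libraries.

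The opposite held for the start of ZNF540, in the ZNF565 to ZNF573 cluster, with a peak within 2 kb in 13 of the 18 COLO320 DM libraries and 1 of the 16 from PC3 DM (adjusted p = 0.00464, Fisher's exact test). The covered length there was 0 to 1495 bp in COLO320 DM, with a median of 357.5 bp, and 0 to 365 bp in PC3 DM, with a median of 0 bp. Those peaks lay before the start, since in the first 4 kb inside ZNF540 a peak was found in 0 COLO320 DM and 1 PC3 DM library. ZNF540 was picked after its values were seen. The gene LOC124904708, which ends 35 bases before the ZNF540 start, shares that window. In lists of equal length the call was lost, with 6 of the 18 COLO320 DM libraries and 0 of the 16 from PC3 DM (adjusted p = 0.0837, Fisher's exact test).

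No member was called between perturbed and vector cells of either line. In COLO320 DM the share of members with a peak was 58.3% ± 9.85 in perturbed libraries (SD, n = 15) and 51.3% ± 9.00 in vector libraries (SD, n = 3). In PC3 DM it was 62.9% ± 10.9 in perturbed libraries (SD, n = 14) and 69.2% ± 2.26 in vector libraries (SD, n = 2). In both lines the vector values, 42.4 to 60.4% in COLO320 DM and 67.6 to 70.8% in PC3 DM, lay inside the range of the perturbed libraries, 41.2 to 84% in COLO320 DM and 42.8 to 86.4% in PC3 DM.

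Of 154 members tested in COLO320 DM 0 were called by Fisher's exact test, as were 0% of 6474 genes. At an unadjusted p of 0.05, 1 member and 72 genes passed. That member was ZNF627, with a peak in 12 of 15 perturbed and 0 of 3 vector libraries (p = 0.0245 before and 1 after adjustment, Fisher's exact test). Of 163 members tested in PC3 DM 0 were called, as were 0% of 10446 genes, and 1 member and 30 genes passed unadjusted. That member was ZNF587B, with a peak in 0 of 14 perturbed and 2 of 2 vector libraries (p = 0.00833 before and 1 after adjustment, Fisher's exact test). With 2 or 3 vector libraries the smallest p these tests allow is 0.00123 in COLO320 DM and 0.00833 in PC3 DM, so a single gene could not pass the adjustment. ZNF627 and ZNF587B were named after their values were seen.

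By plasmid, the COLO320 DM shares were 62.8% ± 21.4 for ecSE1, 57.9% ± 9.21 for ecSE2, 59.7% ± 6.20 for ecSE3, 58.7% ± 3.61 for ecSE4 and 52.5% ± 0.833 for ecSEcombo (SD, n = 3 each). The PC3 DM shares were 60.9% ± 11.2 for ecSE1, 62.5% ± 9.25 for ecSE2, 64.3% ± 5.14 for ecSE6 and 73.3% ± 11.3 for ecSEcombo (SD, n = 3 each), and 49% ± 8.77 for ecSE7 (SD, n = 2). The lowest of these, ecSE7, lay under both PC3 DM vector libraries in each of its libraries, at 42.8% and 55.2%, and its lists held 11239 and 25052 peaks against 18547 and 55454 in the vector libraries. The part of list length in that difference was not tested. The 19p share was above the 19q share under every plasmid, by a mean of 14.8 to 25.5 points in COLO320 DM and 21.2 to 29 points in PC3 DM.

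Genes for the enzymes and readers of H3K9 methylation were taken as a list of 22. Of these, 14 were tested, 0 were higher and 2 were lower in COLO320 DM by the same Fisher's exact test, beside 1.25% higher and 5.74% lower of the 10067 genes tested. With so few genes tested, nothing is read from that share. The median gene of the list had a peak in 5.5 libraries, against 3 over all protein-coding genes. The 2 were H3K9 demethylases. Of the other demethylases listed, KDM4D was not called (adjusted p = 0.236, Fisher's exact test) and KDM4A had peaks in too few libraries to be tested. KDM4C had a peak in 5 of the 18 COLO320 DM libraries and 16 of the 16 from PC3 DM (adjusted p = 0.00183, Fisher's exact test), and KDM4B, itself on chromosome 19, in 0 of 18 and 12 of 16 in the same order (adjusted p = 0.00101, Fisher's exact test). TRIM28, the corepressor that KRAB proteins recruit, lies on chromosome 19 and had a peak in no library. SETDB1, the methyltransferase TRIM28 brings in, had one in 2 of the 18 COLO320 DM libraries and 4 of the 16 from PC3 DM (adjusted p = 0.594, Fisher's exact test).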

How the data were processed

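Processed data were 34 peak lists on hg38, 1 per library. MACS2 2.2.7.1, Bowtie2 2.3.5, Trim Galore 0.6.6, bedtools and SAMtools are named in the submitters' processing notes. The names of the deposited lists give an FDR of 0.001 and say that blacklisted regions were taken out. No peak had a -log10 q-value under 3.00. The authors' score, fold (ratio), -log10 p-value and -log10 q-value of each deposited peak served only to rank and filter peaks inside a list. The use of a control library and the treatment of duplicates are not given in the sources used here.

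Sample titles gave the groups and replicate numbers. As no source calls the replicates separate cultures, p-values reflect only how these libraries vary, possibly for technical reasons. No 2 lists shared more than 0.208% of their peaks exactly.

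Gene positions, promoters and strand came from RefSeq on GRCh38.p14, which is the same build as hg38; strand was known for 219 of 250 members. Exons, introns and UTRs were not annotated here. The start in the promoter table lay within 2 kb of the gene's end in the gene table for 192 of 219 members. Arms were divided at 26 Mb, in the gap between members at 24.13 and 30.2 Mb. Fisher's exact tests were two-sided, with Benjamini-Hochberg adjustment over all protein-coding genes tested (a peak in 3 or more libraries and none in 3 or more; 2 and 2 inside a line). The members, lists and settings were chosen with earlier results of these data known. Named genes were those called, up to 12 members in the most libraries, the leading 2 of each cluster, those in no library, the 5 with the largest covered share per line, and ZNF274, ZNF91 and ZNF93. The tests at gene starts, the arm shares with clusters left out and the lists of the 2 longest libraries left out were added after the values were seen. Protein features of the members were not analysed here. Code was tested on simulated data. Software was matplotlib 3.10.9, scipy 1.17.1, Python 3.11.15, pandas 2.3.3 and numpy 2.4.6.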

Additional observations from a re-analysis of the deposited data

How the results depend on the processing

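Settings tried were q-values of 1e-05 or less, lists of equal length, an overlap of 500 bp, genes without flanks, vector libraries alone, no ecSEcombo libraries, a replicate block, no filter on the number of libraries and each library left out. The overlap of 500 bp had to come from a single peak. With an overlap of 500 bp or more the share of members with a peak was 24.5% in COLO320 DM against 18.2% for PC3 DM, set beside 0.967% and 0.817% of other chromosome 19 genes, and the 19p minus 19q difference was 12.3 and 17.3 points in the same order of lines. With lists of equal length the shares were 40.1% in COLO320 DM against 49.0% for PC3 DM. The difference between the last and first 3 intervals of the gene in COLO320 DM was then 2.01 points. In the lists as deposited that COLO320 DM difference was 1.93 points for members of 30 kb or more, a setting added after seeing the data. The 19p minus 19q and last minus first differences stayed positive in all settings run, while the lines changed places in the share of members at 500 bp. Members with a peak in every library numbered 8 at the stricter q-value, 3 in lists of equal length, 0 at 500 bp and 59 in the vector libraries alone.

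Members called between the lines were 7 in all, 1 higher and 6 lower in COLO320 DM. They numbered 4 (1 and 3) at the stricter q-value, 16 (3 and 13) in lists of equal length and 14 (13 and 1) at 500 bp. Without ecSEcombo they numbered 2 (0 and 2), and with no filter 3 (0 and 3). In the vector libraries alone no gene was tested, since 3 and 2 libraries cannot meet the filter on the number of libraries. Without flanks 2 were higher. Leaving out the 2 lists of over 100000 peaks, which was added after seeing the data, gave 13 (2 and 11). Leaving out each library in turn gave 4 to 14 calls, 0 to 2 higher and 4 to 12 lower. The count was 14 without COLO320 DM ecSE1 replicate 2, and 4 without PC3 DM ecSE1 replicate 3, ecSEcombo replicate 2 or vector replicate 2. ZNF468 reversed at 500 bp, to a difference of 4.86 points (adjusted p = 1, Fisher's exact test). No perturbed-against-vector call appeared in any setting. With 3 or fewer vector libraries a single gene could not pass the adjustment, so nothing is read from that absence. The causes were not tested.

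Deviations of same-numbered perturbed and vector libraries from their group means had correlations of -0.0824 to 0.0957 over 15 pairs in COLO320 DM. In PC3 DM these correlations were -0.167 to 0.0672 over 10 pairs. With so few libraries per group, they cannot decide whether equal numbers stand for a shared batch, and the main tests used no pairing. With the replicate block 6 members were called between the lines, 1 higher and 5 lower, ZNF99 being lost, and 0 between perturbed and vector cells in either line.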
